A study of Rattus norvegicus with 12 samples.

Results

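Molecular chaperone genes were followed in rat retina after an injection of NMDA into the eye. The set holds the protein-coding genes of the deposited table whose symbols name heat shock proteins (HSP90, HSP70 with HSP110, HSP60 with HSP10 and the small heat shock proteins), the J-domain proteins of the DNAJA, DNAJB and DNAJC classes, the BAG cochaperones Bag1 to Bag6, or the heat shock factors Hsf1, Hsf2 and Hsf4. These were 79 of the 30560 genes in the table, picked by symbol and gene type, and the set was proposed with earlier results of these data known. Total RNA of the retina was sequenced from 12 rats. The 6 control rats received 2 µL of PBS, a salt solution, into the vitreous. The other 6 received 2 µL of 20 mM NMDA, which activates glutamate receptors of the class named after it and in excess injures retinal neurons, in what the series calls a glaucoma model. Strain, age, sex and the time from injection to collection are not given in the sources used here. The labels number the rats 1 to 6 in each group, and the libraries are named PBS 1 to PBS 6 and NMDA 1 to NMDA 6. An injection of NMDA acts at once and is not known to raise eye pressure, which limits it as a model of glaucoma. In bulk tissue, fewer cells of a type and less RNA per cell cannot be told apart.

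Chaperones help other proteins reach and keep their folded shape. HSP70 proteins bind exposed stretches of unfolded chains in cycles driven by ATP, J-domain proteins bring them their clients, BAG proteins and HSP110 release the bound nucleotide, and HSP90 acts later on clients such as kinases and receptors. Separate sets work in the cytosol, in the endoplasmic reticulum (ER) and in the mitochondrial matrix, and each has its own stress response: heat shock factors bind heat shock elements of cytosolic chaperone genes, and ATF6 and XBP1 act through ER stress response elements when unfolded proteins gather in the ER. In the retina these proteins serve photoreceptors and ganglion cells, which make large amounts of membrane and synaptic protein.

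The upstream sequences of 5 members are shown because they hold matches, by letters alone, to elements through which these pathways are known to act. They come from RefSeq's rat assembly GRCr8, which held 63 windows for 62 of the 79 members. A window of 300 bases runs from 250 before to 50 after the annotated start, and all of it was searched. Printed are the 250 bases before the start, written 5′ to 3′ on the gene's strand. The ER element was searched on both strands as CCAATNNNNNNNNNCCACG, and capitals mark it in the first 3 sequences. In the window of Hsph1 capitals mark a heat shock element of 3 units (TTCNNGAANNTTC or GAANNTTCNNGAA). In that of Bag3 they mark 1 of 2 units (GAANNTTC or TTCNNGAA), a pattern that every element of 3 units also holds. They lie at chr3:38452766-38453015 on the plus strand (Hspa5), chr7:23012294-23012543 on the minus strand (Hsp90b1), chr15:102432417-102432666 on the plus strand (Dnajc3), chr12:10427118-10427367 on the plus strand (Hsph1) and chr1:192533210-192533459 on the plus strand (Bag3).
Hspa5: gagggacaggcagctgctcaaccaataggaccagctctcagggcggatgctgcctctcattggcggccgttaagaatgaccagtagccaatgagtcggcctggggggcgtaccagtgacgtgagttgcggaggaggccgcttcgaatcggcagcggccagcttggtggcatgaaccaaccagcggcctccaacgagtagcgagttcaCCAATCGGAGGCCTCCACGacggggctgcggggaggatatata
Hsp90b1: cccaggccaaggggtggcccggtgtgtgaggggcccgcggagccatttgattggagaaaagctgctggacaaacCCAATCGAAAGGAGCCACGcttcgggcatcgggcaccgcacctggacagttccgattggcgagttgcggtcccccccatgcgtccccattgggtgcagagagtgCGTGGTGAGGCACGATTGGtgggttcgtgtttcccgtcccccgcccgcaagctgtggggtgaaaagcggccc
Dnajc3: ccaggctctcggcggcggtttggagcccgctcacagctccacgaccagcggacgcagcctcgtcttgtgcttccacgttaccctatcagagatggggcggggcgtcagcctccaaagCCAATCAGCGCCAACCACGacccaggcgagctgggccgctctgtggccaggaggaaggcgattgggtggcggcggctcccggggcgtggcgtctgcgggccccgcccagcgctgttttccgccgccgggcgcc
Hsph1: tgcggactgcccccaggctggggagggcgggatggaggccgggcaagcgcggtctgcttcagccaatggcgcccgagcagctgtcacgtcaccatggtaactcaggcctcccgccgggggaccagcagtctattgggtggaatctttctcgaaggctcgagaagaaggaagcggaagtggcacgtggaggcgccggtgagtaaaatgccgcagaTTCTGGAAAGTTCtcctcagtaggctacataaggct
Bag3: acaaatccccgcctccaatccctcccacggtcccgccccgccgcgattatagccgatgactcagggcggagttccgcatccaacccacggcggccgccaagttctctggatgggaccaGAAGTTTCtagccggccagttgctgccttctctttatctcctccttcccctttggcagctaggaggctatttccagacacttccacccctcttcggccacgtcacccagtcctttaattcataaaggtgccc

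The ER element stood in the windows of Hspa5, Hsp90b1 (2 matches) and Dnajc3, which are 3 of the 63 member windows, and in 0.0657% of all 33469 windows. All 3 genes were higher after NMDA, as given below, where 20.4% of all tested genes were. Dnajb11, Dnajc1 and Dnajc25, of the ER and higher as well, had windows without this element. The printed windows were chosen after the values were seen. Heat shock elements of 3 units stood in the windows of Dnaja1, Hspa8, Hspd1, Hspe1 and Hsph1, 5 of 63, and in 0.798% of all windows. That of Dnaja1 lay after the start, at bases 10 to 22, and the others before it. Of those 5 genes, 2 were higher (Hspd1 and Hspe1) and 3 did not pass the test. Hspa8 is 1 of these 3 and is read here without its copies. Summed with 6 listed copies it passed, at a log2 fold change of 0.23 (adjusted p = 0.0144). The shorter element of 2 units was in 17 of 63 member windows and in 15.9% of all windows. It was held by 5 genes that were higher, 2 that were lower and 9 that did not pass the test (Hspa8 among them), and by 1 that was not tested. Over all tested genes 20.4% were higher and 17.5% lower. Hspd1 and Hspe1 lie head to head and share the stretch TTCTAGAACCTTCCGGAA at chr9:64084262-64084279, written on the strand of Hspe1, 48 to 65 bases before its start and 225 to 242 bases before the start of Hspd1. A match of letters is a description and shows no binding.

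Of the 79 members, 73 had enough counts to be tested (edgeR quasi-likelihood test over 16260 genes, Benjamini-Hochberg adjusted, threshold 0.05). Of these, 15 were higher after NMDA, 20.5%, where 20.4% of all tested genes were, and 7 were lower, 9.59%, where 17.5% of all tested genes were. With library size in place of TMM scaling 27 were higher and 5 lower, so that the share of calls that were higher went from 68.2% to 84.4%. Over all tested genes that scaling called 26.0% higher and 14.3% lower, and the share of calls that were higher went from 53.8% to 64.6%. The median log2 fold change was 0.05 over the tested members and 0.01 over all tested genes. In 7 members every NMDA library lay above every PBS library, where 9.43% of tested genes did, and in 4 every NMDA library lay below, where 8.66% did. The share of members that were higher was thus near that of all genes. Changes were small: 1 member differed by at least 1 on the log2 scale, 5 by at least 0.5, and 18 of the 22 members past the threshold by less than 0.5. The 6 untested members were Dnajb8, listed at 0 in all libraries, and Dnajc5b, Dnajc5g, Hspb3, Hspb7 and Hspb9.

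**Figure D1:**
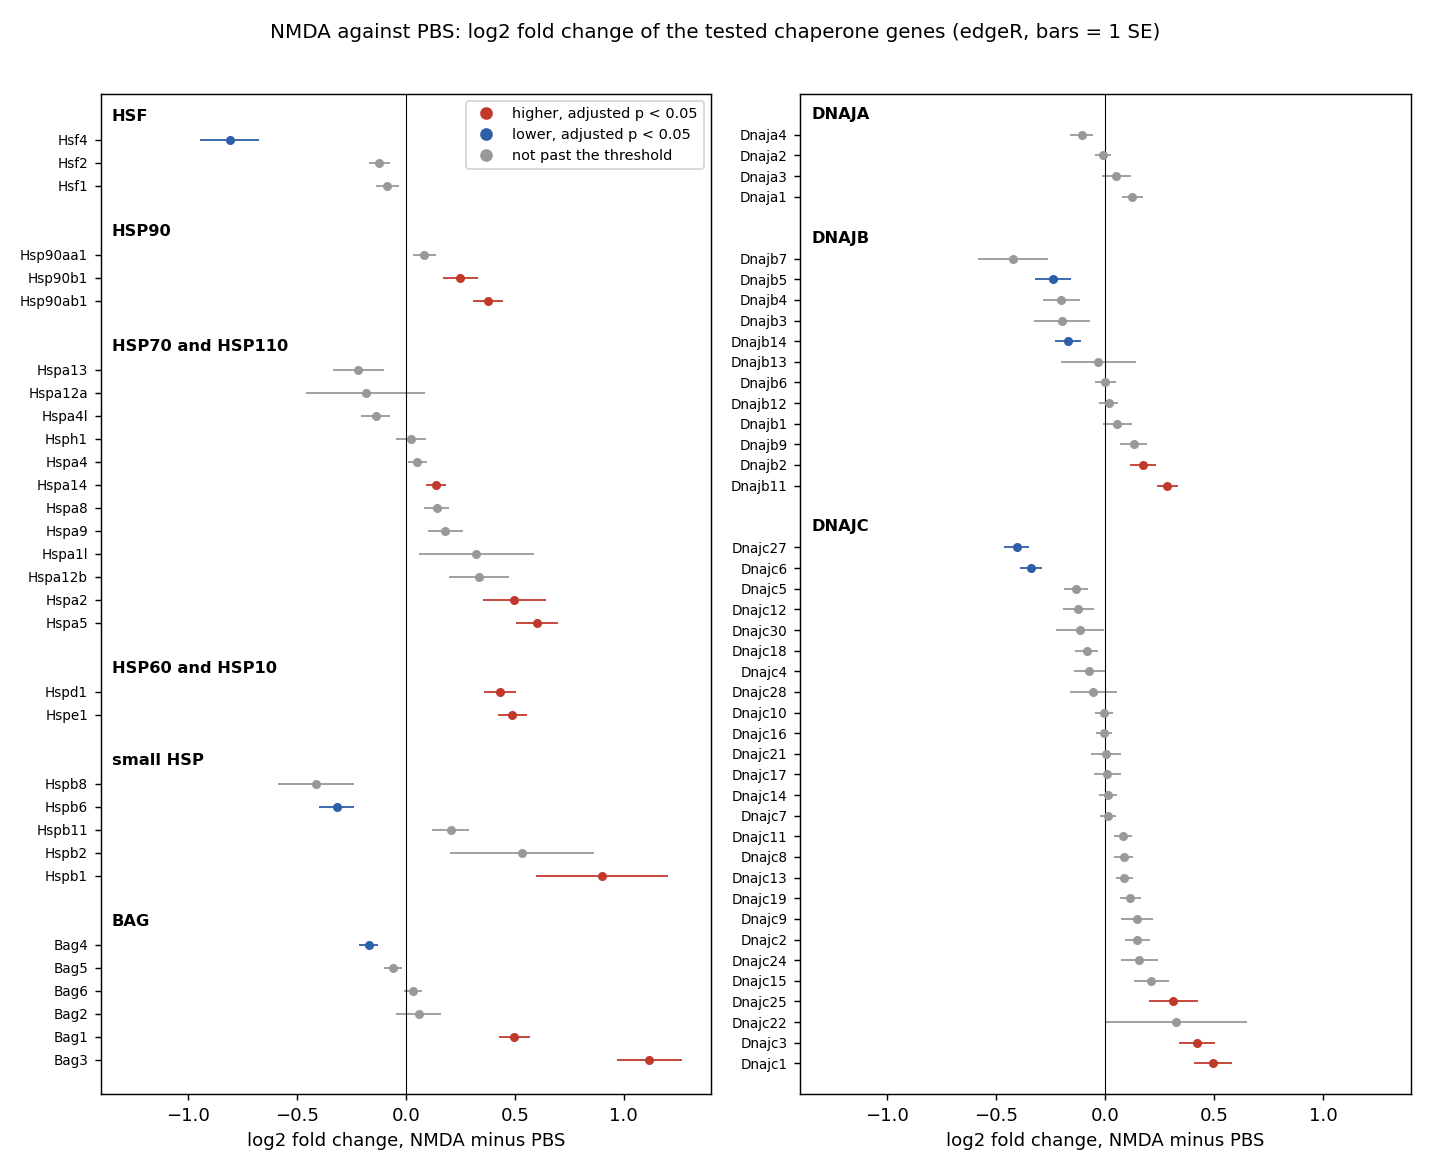
Log2 fold change, NMDA minus PBS, of the 73 tested members by family, with bars of 1 SE (n = 6 libraries per group). Red points (15) passed the threshold as higher and blue points (7) as lower; Bag3 at 1.12 and Hsf4 at -0.81 lie farthest from 0.

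Total counts ran from 16415611 to 34022023. The members' summed share of counts was 0.634% to 0.686% with PBS and 0.680% to 0.769% with NMDA, and only NMDA 3 lay inside the PBS range. This share carries no TMM scaling and leaves out the listed copies of Hspa8 and Hspd1. Ganglion cell markers summed to 890 to 1088 CPM (counts scaled to a common library total with TMM factors) with PBS and 260 to 626 CPM with NMDA, and 9 of 10 were lower. Reactive glia markers summed to 435 to 867 CPM with PBS and 1195 to 2492 CPM with NMDA, and all 9 tested were higher; microglial and macrophage markers were higher in 9 of 10 and lower in 1 (P2ry12). Müller glia markers were lower in 6 of 9 and higher in 1 (Sox9). Rod and cone markers were lower in 8 of 10, and summed to 47794 to 51286 CPM with PBS and 31742 to 47138 CPM with NMDA. Rhodopsin and its partners were the most abundant of all marker lists, which checks the label retina. Lens markers summed to 228 to 2127 CPM with PBS and 47.7 to 1772 CPM with NMDA, and 0 of 16 passed the test. The part of these cell markers in the changes below was not tested.

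Of 10 members with a chaperone or J domain in the ER lumen, 6 were higher (Hspa5, Dnajc1, Dnajc3, Dnajc25, Dnajb11 and Hsp90b1) and none was lower, where 20.4% and 17.5% of all tested genes were. Their median log2 fold change was 0.27. This grouping was made after the values were seen and is a description. Hspa5, the ER's HSP70 (BiP) and the sensor that holds the unfolded protein response in check, measured 247, 299 and 385 CPM (lowest, median and highest) with PBS and 414, 453 and 533 CPM with NMDA. Every NMDA library lay above every PBS library, and the log2 fold change was 0.60 ± 0.10 (SE, n = 6 per group; adjusted p = 0.000472), 1.52-fold. Hsp90b1, the ER's HSP90 (GRP94), measured 349, 424 and 503 CPM with PBS and 445, 514 and 554 CPM with NMDA. Its groups overlapped, since PBS 5 at 503 CPM lay above NMDA 3 at 445 and NMDA 4 at 478 CPM. The log2 fold change was 0.25 ± 0.08 (adjusted p = 0.0250); leaving out PBS 1, PBS 6 or NMDA 5 gave adjusted p of 0.0541, 0.0537 and 0.0567.

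Of the J-domain proteins that work with Hspa5, 4 passed the test. Dnajb11, which hands unfolded chains to it, was at 65.1, 67.9 and 73.1 CPM with PBS and 74.5, 84.0 and 89.6 CPM with NMDA. The groups did not overlap, and its log2 fold change was 0.28 ± 0.05 (adjusted p = 0.000584). Dnajc3, known as p58IPK and an inhibitor of the kinase PERK, measured 23.8, 26.7 and 31.5 CPM with PBS and 31.5, 36.5 and 40.1 CPM with NMDA. The highest PBS library, PBS 5, and the lowest NMDA library, NMDA 1, all but met, and the log2 fold change was 0.42 ± 0.08 (adjusted p = 0.00150). Dnajc1, an ER membrane protein with its J domain in the lumen, rose by 0.49 ± 0.09 (adjusted p = 0.000920), from 9.65 to 11.8 CPM with PBS to 13.3 to 18.6 CPM with NMDA, with no overlap. Dnajc25 was higher by 0.31 ± 0.11 (adjusted p = 0.0403) and lost the call in 9 of 12 fits without 1 library (PBS 2, PBS 4, PBS 5, PBS 6, and every NMDA library but NMDA 1; adjusted p 0.0564 to 0.0878) and without a count filter (0.0610). The other ER members did not pass the test: Dnajb9, an early target of XBP1, had a log2 fold change of 0.13 (95% interval 0.01 to 0.25, adjusted p = 0.128). Dnajc10, an ER disulfide reductase, stood at -0.01 (-0.09 to 0.08), Dnajc16 at -0.01 (-0.08 to 0.07) and Hspa13 at -0.22 (-0.45 to 0.01).

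**Figure D2:**
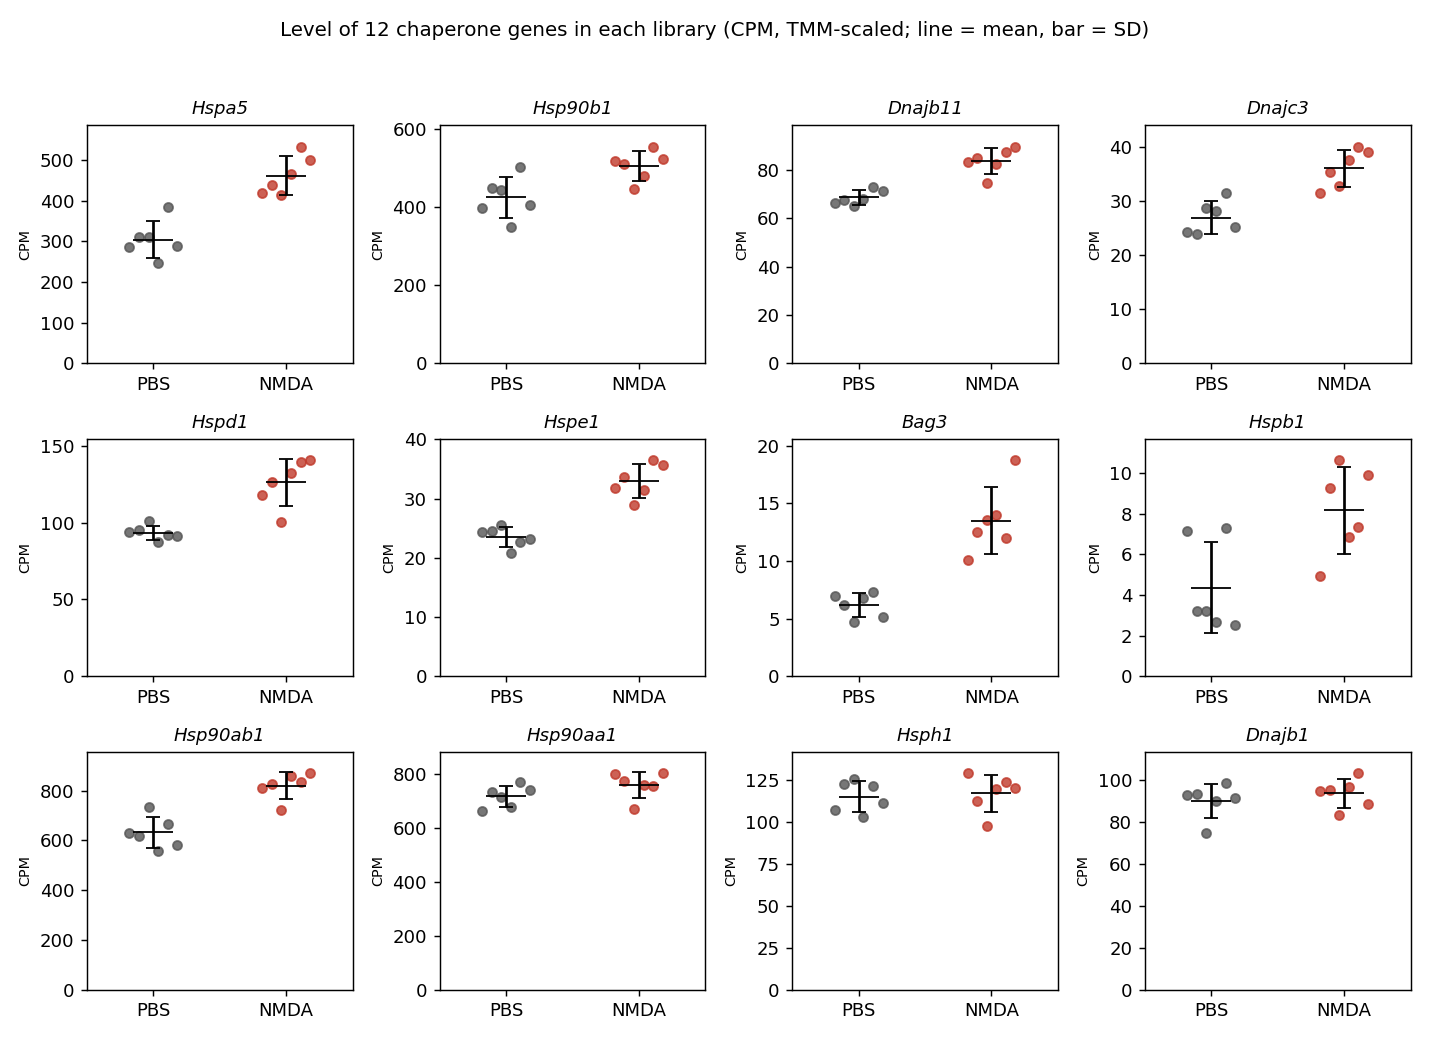
Level of 12 members in each library (CPM, TMM-scaled, linear axes from 0; points are libraries, the line is the mean and the bar the SD, n = 6 per group). Hspa5, Dnajb11, Dnajc3, Hspe1 and Bag3 show no overlap of groups, whereas Hsp90aa1, Hsph1 and Dnajb1 overlap.

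ER chaperones and folding enzymes that are no heat shock or DnaJ genes were read from a list of 20, all tested: 13 were higher and 1 was lower, where 20.4% and 17.5% of all tested genes were, and the median log2 fold change was 0.20. Pdia6, Pdia4 and Pdia3, disulfide isomerases of the ER, rose by 0.65 ± 0.07 (adjusted p = 4.07e-05), 0.71 ± 0.08 (4.63e-05) and 0.56 ± 0.06 (6.80e-05), each with all NMDA libraries above all PBS libraries. Sdf2l1, a partner of Dnajb11 and Hspa5, was chosen after its value was seen: it measured 4.68, 6.51 and 9.32 CPM with PBS and 12.7, 17.2 and 18.3 CPM with NMDA, a log2 fold change of 1.26 ± 0.17 (adjusted p = 0.000153). The lower gene was Ero1a, an oxidase that recharges the isomerases, at -0.36 ± 0.05 (adjusted p = 0.000183). Some genes of ER-associated degradation in this list were higher, and none passed the test as lower. Herpud1, Sel1l and Syvn1 were among the 6 that did not pass, with log2 fold changes of 0.02, -0.10 and 0.04. Derl3, Edem1 and Derl1 were higher, by 0.82 (adjusted p = 0.00595), 0.22 (0.0236) and 0.12 (0.0219). These degradation genes too were chosen after their values were seen.

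**Figure D3:**
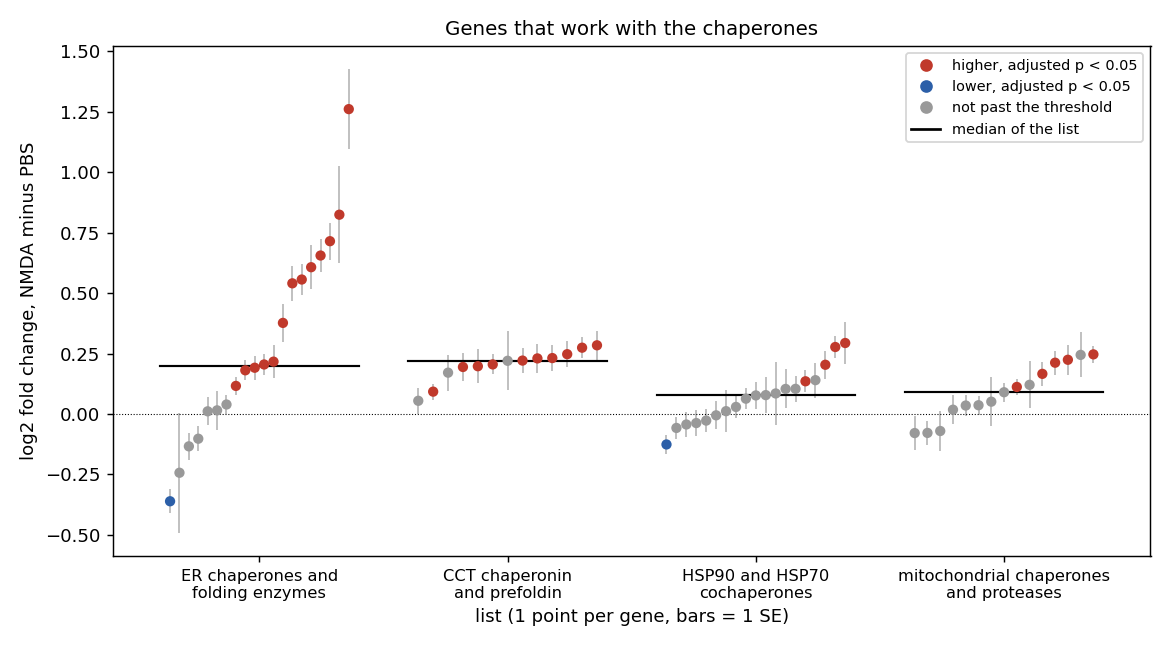
Log2 fold change, NMDA minus PBS, of genes that work with the chaperones, in 4 lists (1 point per tested gene, bars of 1 SE, black line the list's median). In the ER list 13 of 20 points are red (higher), in the chaperonin list 10 of 13, in the cochaperone list 4 of 19 and in the mitochondrial list 5 of 15.

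In the mitochondrial matrix, the chaperonin pair Hspd1 (HSP60) and its lid Hspe1 (HSP10) were both higher. Hspe1 measured 20.9, 23.8 and 25.6 CPM with PBS and 28.9, 32.8 and 36.5 CPM with NMDA. There was no overlap, and the log2 fold change was 0.49 ± 0.07 (adjusted p = 0.000190). Hspd1 measured 87.1, 92.7 and 101 CPM with PBS and 100.4, 129 and 141 CPM with NMDA, and NMDA 3 alone lay inside the PBS range. Its log2 fold change was 0.43 ± 0.07 (adjusted p = 0.000645), and 0.43 ± 0.07 when the counts of 1 listed pseudogene copy, 17.0% to 19.3% of the sum per library, were added. The files place these neighbours on chromosome 9 (Hspd1 at 56579201 to 56589662 and Hspe1 at 56589789 to 56593089, on a build that is not given). Hspa9, the matrix HSP70 (mortalin), had a log2 fold change of 0.18 (0.02 to 0.34, adjusted p = 0.0994), and its J partner Dnaja3 one of 0.05 (-0.08 to 0.18). In a list of 15 mitochondrial chaperones and proteases, 5 were higher (33.3%, against 20.4% of all tested genes) and none lower, with a median of 0.09. Lonp1, the matrix protease, rose by 0.25 ± 0.04 (adjusted p = 0.000233), Tomm40, the pore of the outer membrane, by 0.21 ± 0.05 (0.00474) and Htra2, a protease between the membranes, by 0.22 ± 0.06 (0.0128). Mitochondrially encoded genes took a smaller share of counts with NMDA, 3.996% ± 0.214 against 4.37% ± 0.0899 in controls (SD over 6 libraries; exact permutation test, two-sided, p = 0.00866).

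Of 13 cytosolic members of the heat shock response and their close relatives, grouped after the values were seen, 3 were higher (Bag3, Hspb1 and Hsp90ab1), none was lower and the median log2 fold change was 0.05. The share higher, 23.1%, was near the 20.4% of all tested genes. Other members past the threshold, among them Bag1 and Hspa2 (higher) and Bag4 and Hspb6 (lower), were not placed in this group. Its counts depend on that choice and are a description. Bag3, a cochaperone that links HSP70 and small heat shock proteins to autophagy, had the largest change among the members. It measured 4.70, 6.53 and 7.34 CPM with PBS and 10.1, 13.0 and 18.8 CPM with NMDA, highest in NMDA 6. The groups were well apart, and the log2 fold change was 1.12 ± 0.15 (adjusted p = 0.000178), 2.17-fold. Hspb1 (HSP27), a small heat shock protein known from reactive glia and injured neurons, measured 2.55, 3.22 and 7.30 CPM with PBS and 4.94, 8.30 and 10.6 CPM with NMDA. PBS 1 at 7.16 and PBS 5 at 7.30 CPM lay within the NMDA range, the other 4 PBS libraries at 3.22 CPM or below. The reactive glia sum was also highest among the PBS libraries in PBS 5 (867 CPM) and PBS 1 (668 CPM). PBS 3 came next at 631 CPM, though Hspb1 measured 3.22 CPM there. The part of the reactive glia sum in Hspb1 was not tested. The log2 fold change of 0.90 ± 0.30 (adjusted p = 0.0328) missed the threshold in 7 of the 12 fits without 1 library, those without PBS 2, PBS 3, PBS 4, PBS 6, NMDA 2, NMDA 3 or NMDA 6 (adjusted p 0.0604 to 0.0706).

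The cytosolic HSP90 genes differed in their calls. Hsp90ab1, the constitutive form, measured 559, 625 and 735 CPM with PBS and 722, 832 and 869 CPM with NMDA, and only NMDA 3 at 722 CPM lay below the highest PBS library, PBS 3. Its log2 fold change was 0.38 ± 0.07 (adjusted p = 0.000860). Hsp90aa1, the inducible form, had the highest listed FPKM of the members with PBS, 265 (reads scaled to gene length and library total), where Hspa8 is read without its copies. It measured 663, 723 and 767 CPM with PBS and 669, 766 and 800.2 CPM with NMDA. Its log2 fold change was 0.08 (-0.02 to 0.19, adjusted p = 0.222), and 0.14 (adjusted p = 0.0295) without PBS 5 and NMDA 3. The difference between the 2 genes' changes was not tested. Hsph1 (HSP110), whose window above holds the longer heat shock element, stood at 0.02 (-0.11 to 0.16), Dnajb1 (HSP40), the usual marker of a heat shock response, at 0.05 (-0.07 to 0.18), and Dnaja1 at 0.12 (0.03 to 0.22, adjusted p = 0.0609). Each had overlapping groups.

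Values of the HSP70 genes depend on how reads were shared among copies. Hspa8, the constitutive HSP70, was listed at 80.4 to 96.8 CPM with PBS and 84.6 to 106 CPM with NMDA, with a log2 fold change of 0.14 ± 0.06 (adjusted p = 0.0697). The table also lists 6 near copies or pseudogenes of it, which held 93.2% to 94.6% of the summed counts. With them the level was 1438 ± 109 CPM with PBS and 1684 ± 131 CPM with NMDA (SD, n = 6), and the log2 fold change of the sum 0.23 ± 0.06 passed the test (adjusted p = 0.0144) with overlapping groups. The inducible genes Hspa1a and Hspa1b were not analysed here. Hspa1l, which overlaps Hspa1a in RefSeq, is uncertain for that reason, since no strand setting is given: it measured 5.33 to 10.6 CPM with PBS and 5.04 to 16.4 CPM with NMDA and did not pass the test. Hspa2, an HSP70 known from male germ cells, was higher by 0.50 ± 0.14 (adjusted p = 0.0164), from 17.4, 19.7 and 28.0 CPM with PBS to 21.3, 33.2 and 34.7 CPM with NMDA. As for Hspb1, PBS 1 (27.1 CPM) and PBS 5 (28.0 CPM) were the high controls, and NMDA 1 at 21.3 CPM lay below both and above the other 4. Hspa14, which acts at the ribosome, was higher by 0.14 ± 0.05 (adjusted p = 0.0317), but not without PBS 1, PBS 2, PBS 4, PBS 5, PBS 6, NMDA 1, NMDA 2, NMDA 5 or NMDA 6 (adjusted p 0.0565 to 0.0776) or without a count filter (0.0661).

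Among the other BAG and small heat shock genes, changes went both ways. Bag1, a nucleotide exchange factor that couples HSP70 to the proteasome, measured 28.6, 31.0 and 35.0 CPM with PBS and 38.9, 44.1 and 52.8 CPM with NMDA. The groups did not overlap, and its log2 fold change was 0.50 ± 0.07 (adjusted p = 0.000247). Bag4, known as a silencer of death receptors, was lower, with a log2 fold change of -0.17 ± 0.05 (adjusted p = 0.00946), at 48.8 to 56.2 CPM with PBS and 42.4 to 48.3 CPM with NMDA. It missed the threshold with limma on log2(FPKM + 1), at -0.11 (adjusted p = 0.0615), and on log2(FPKM + 0.1), at -0.12 (0.0621). Hspb6 (HSP20) was lower as well, at -0.32 ± 0.08 (adjusted p = 0.00639), from 32.8, 35.6 and 40.8 CPM to 25.0, 28.9 and 34.4 CPM, and only NMDA 1 lay in the PBS range. Hspb8, the partner of Bag3 in chaperone-assisted autophagy, did not pass the test: it measured 4.95, 6.50 and 7.34 CPM with PBS and 3.28, 4.69 and 7.00 CPM with NMDA. Its log2 fold change was -0.41 ± 0.17 (adjusted p = 0.0791), and -0.55 (adjusted p = 0.0129) without NMDA 3, the NMDA library at 7.00 CPM. The alpha-crystallins Cryaa and Cryab, small heat shock proteins that lens and retina both make, had log2 fold changes of 0.24 ± 0.66 and 0.42 ± 0.53. Their spread was wide, at 32.5 to 1619 CPM for Cryaa over the NMDA libraries, beside the lens marker range given above.

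None of the 3 heat shock factors passed the test as higher. Hsf1, the master factor of the cytosolic response, measured 104, 116 and 124 CPM with PBS and 102, 106 and 124 CPM with NMDA, where NMDA 1 was the highest and the other 5 lay at 102 to 108 CPM. Its log2 fold change was -0.08 (-0.19 to 0.02, adjusted p = 0.249), and -0.14 (adjusted p = 0.0303) without NMDA 1. Hsf2, a factor of development, stood at -0.12 (-0.22 to -0.03, adjusted p = 0.0633). Hsf4, a factor known from the lens, measured 3.88, 4.36 and 4.95 CPM with PBS and 2.06, 2.36 and 3.25 CPM with NMDA. Its groups did not overlap, the NMDA group being the lower, and the log2 fold change was -0.81 ± 0.14 (adjusted p = 0.000605).

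Of the J-domain genes, 2 of 12 DNAJB genes were higher and 2 lower (16.7% each), and 3 of 26 DNAJC genes were higher (11.5%) and 2 lower (7.69%), beside 20.4% and 17.5% of all tested genes. Dnajc6 and Dnajc27 had the smallest adjusted p among them. Dnajc6 (auxilin), which uncoats clathrin vesicles at synapses, measured 165, 170.4 and 185 CPM with PBS and 123, 136 and 147 CPM with NMDA. The groups were apart, and its log2 fold change was -0.34 ± 0.05 (adjusted p = 0.000255). Dnajc27, which joins a J domain to a Rab-like GTPase, measured 151, 163 and 168 CPM with PBS and 109, 119.6 and 142 CPM with NMDA, a log2 fold change of -0.41 ± 0.06 (adjusted p = 0.000198), also without overlap. Dnajc5, the synaptic vesicle protein CSPα, was at 170.0, 183 and 194 CPM with PBS and 146, 165 and 189.8 CPM with NMDA. It did not pass the test at -0.14 ± 0.06 (adjusted p = 0.0752), but did at -0.19 (0.00895) without NMDA 1, its highest NMDA library. Dnajb5 and Dnajb14, an ER membrane protein with its J domain in the cytosol, had log2 fold changes of -0.24 ± 0.08 (adjusted p = 0.0340) and -0.17 ± 0.06 (0.0403). Leaving out PBS 1, PBS 2, PBS 6, NMDA 2, NMDA 4 or NMDA 5 ended the call of Dnajb5 (adjusted p 0.0563 to 0.0752), and leaving out PBS 4, PBS 5, PBS 6, NMDA 3, NMDA 4, NMDA 5 or NMDA 6 that of Dnajb14 (0.0683 to 0.0883). Both also missed the threshold with limma on log2(FPKM + 1), at adjusted p of 0.0780 and 0.0983, and with library size only, at 0.0674 and 0.113. Dnajb2, known from neurons, was higher by 0.17 ± 0.06 (adjusted p = 0.0327), but not without PBS 2, PBS 3, PBS 4, NMDA 1, NMDA 4, NMDA 5 or NMDA 6 (0.0615 to 0.0730) or without a count filter (0.0613). None of the 4 tested DNAJA genes passed. Beside these, the ganglion cell markers fell as given above, and the part of that fall in Dnajc6 and Dnajc27 was not tested.

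Cytosolic partners were read from 2 further lists. Of the CCT chaperonin, which folds actin and tubulin, all 8 subunits were higher, and with prefoldin 10 of 13 genes were (20.4% of all tested genes), with none lower and a median log2 fold change of 0.22. The groups were apart only for Cct2 and Cct4. In Cct6a the lowest NMDA library (152 CPM) lay below the lowest PBS library (154 CPM). With DESeq2 size factors 8 of the 13 were higher. Cct4 rose by 0.27 ± 0.04 (adjusted p = 0.000413), Cct2 by 0.20 ± 0.04 (0.00197) and Cct5 by 0.28 ± 0.06 (0.00245). Of 19 tested cochaperones of HSP90 and HSP70, 4 were higher and 1 was lower, with a median of 0.08, and the share higher, 21.1%, was near the 20.4% of all tested genes. Nudc rose by 0.28 ± 0.04 (adjusted p = 0.000434), Ptges3 (p23) by 0.20 ± 0.06 (0.0140) and Hspbp1, an exchange factor of HSP70, by 0.29 ± 0.09 (0.0172). Tomm70, the import receptor that takes chains from HSP70 and HSP90, fell by 0.13 ± 0.04 on the log2 scale (adjusted p = 0.0202). Its call was lost with library size only (-0.08, adjusted p = 0.155), with limma on log2(FPKM + 1) (0.150) and log2(FPKM + 0.1) (0.151), and without NMDA 1 and NMDA 3 (0.0538).

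The NMDA libraries differed among themselves in how far the 22 members past the threshold had moved. NMDA 3 lay nearest the PBS mean in 12 of them, NMDA 1 in 9 and NMDA 2 in 1. NMDA 5 lay farthest in 10, NMDA 6 in 6, NMDA 4 in 4, and NMDA 2 and NMDA 3 in 1 each. The ganglion cell markers summed to 626 CPM in NMDA 3 and 585 CPM in NMDA 1 and to 260 to 357 CPM in the other 4. NMDA 2, NMDA 4, NMDA 5 and NMDA 6 were on the called side of the PBS mean for all 22 members, NMDA 3 for 21 and NMDA 1 for 19. The 22 members were called from these same libraries, so their side was largely fixed by that choice and is only a description. Leaving out NMDA 1 and NMDA 3 together gave 20 higher and 14 lower members, where 21.2% and 20.6% of all tested genes were called. Leaving out NMDA 1 alone gave 15 and 12, where 20.7% and 19.7% were. NMDA 3 or NMDA 1 lay nearest the PBS mean in most of the 22. Whether that bears on these counts was not tested, and the counts are only a description. The median SD of a tested member was 0.10 on the log2 scale among PBS and 0.11 among NMDA libraries.

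**Figure D4:**
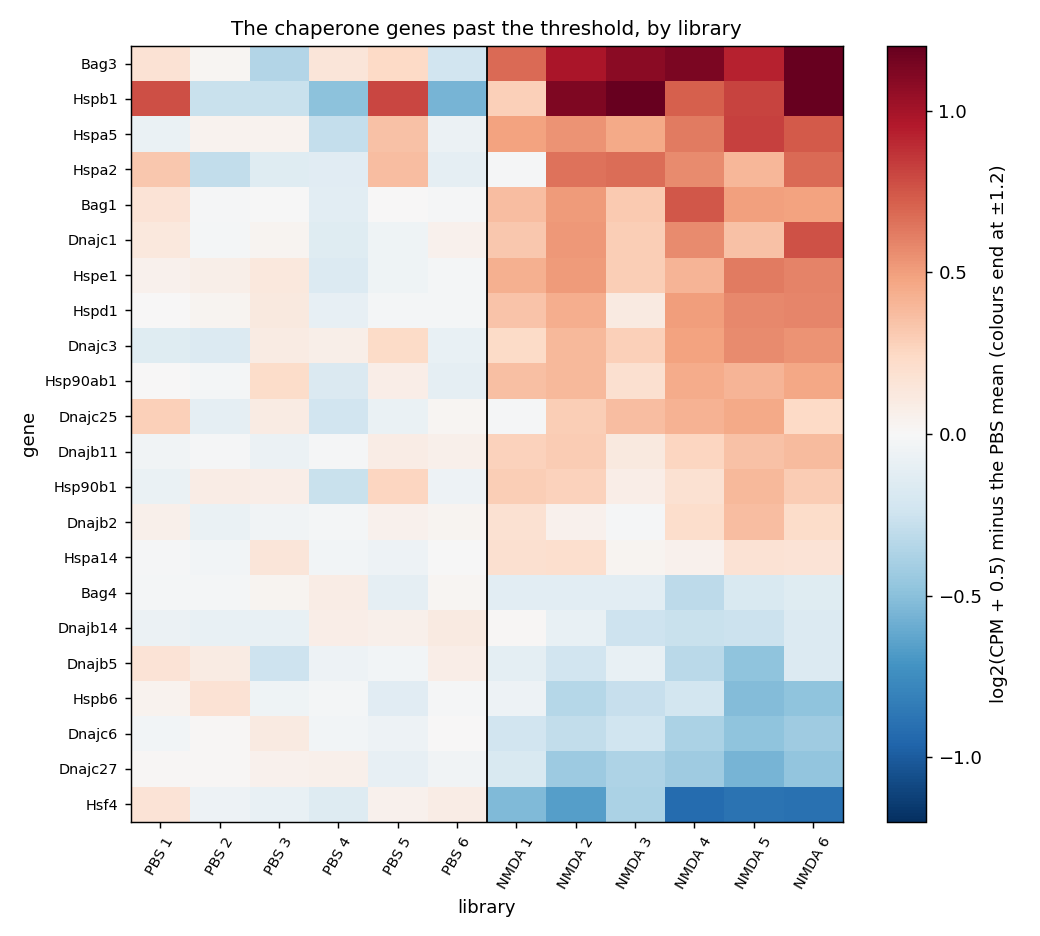
The 22 members past the threshold in every library, as log2(CPM + 0.5) minus the PBS mean (red higher, blue lower, colours end at 1.2 on either side). In most rows the palest NMDA column is NMDA 1 or NMDA 3, though NMDA 3 is as red as any for Hspb1. PBS 1 and PBS 5 are red for Hspb1 and Hspa2.

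Hspa12a, a distant HSP70 relative found in the nervous system, stood out by its spread and not by its groups. It measured 94.5 CPM in PBS 5 and 75.3 CPM in NMDA 4, against 227 to 242 CPM in the other PBS libraries and 199 to 217 CPM in the other NMDA libraries. Its log2 fold change of -0.18 ± 0.27 did not pass the test (adjusted p = 0.641). Of 14865 genes with a mean above 1 CPM, 1, Hspa12a itself, had both libraries below 0.6 of the lowest of the other 10. The look and its limit of 0.6 were chosen after the values were seen.

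**Figure D5:**
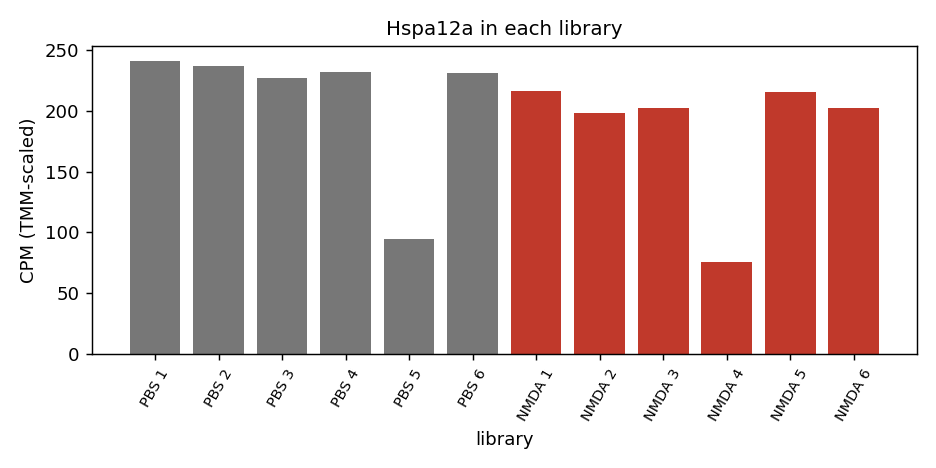
Hspa12a in each library (CPM, TMM-scaled, bars from 0; grey PBS, red NMDA; 1 bar per library, so no error bar). PBS 5 at 94.5 and NMDA 4 at 75.3 CPM lie far below the other 10 libraries.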

How the data were processed

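Whole counts per gene and FPKM values of 12 rat retina libraries were deposited by the authors in 1 table. The counts are unscaled, and the FPKM values are scaled to gene length and library total, per the file headers and the values. The submitters' processing notes name Bowtie2, RSEM 1.3.1 and DESeq2 1.4.5 but give no roles. Build, strand setting and the treatment of reads that match several places are not given in the sources used here, so values of near copies are uncertain. If RSEM made the counts, its estimates were rounded before deposit.

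Genes were filtered with edgeR's filterByExpr (count minimum 10, total minimum 15), scaled by TMM, and tested NMDA against PBS by the two-sided quasi-likelihood test of edgeR 4.0.16 (R 4.3.3, robust, with group as the only term). P-values were adjusted by Benjamini-Hochberg over all 16260 genes tested, with a threshold of 0.05. CPM values carry the TMM factor. SE values are of the fitted log2 fold change, and 95% intervals are 1.96 SE to either side. The p-values of library shares come from an exact permutation test over 924 assignments. The labels name a rat per library and say nothing on litters or days.

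The members, the lists and the tests were chosen with earlier results of these data known. Named were 22 core members (of which Hspa1a and Hspa1b could not be reported), the 8 members with the smallest adjusted p in each direction, any member past a log2 change of 1, up to 3 genes per direction of each of the 5 chaperone lists, and both alpha-crystallins. Dnajc3, Dnajc25, Dnajc10, Dnajc16, Dnaja3, Dnajb2, Dnajb9, Hspa12a, Hspa13, Hspa14, Hspa1l, Sdf2l1 and the ER degradation genes were added after their values were seen, as were the compartments, the sums over copies and the printed windows. Lists of 8 cell types served as checks. Of these, endothelial markers were higher in 4 of 9 and lower in 1, and pigment epithelium markers were lower in 3 of 9.

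The test was checked on simulated counts in which 200 genes were changed. It recovered 40.9% of those changed by 0.5 on the log2 scale, 83.3% at 1 and 100% at 2. Of its calls 5.26% were false. Far more genes passed in the data, so these shares do not carry over directly. Members that did not pass may still have changed by small amounts. Alternatives used other scalings, filters, tools (DESeq2 1.42.0, limma 3.58.1 on voom values or on log2(FPKM + 1) and log2(FPKM + 0.1)), a replicate block, a lens covariate and subsets of libraries. No 2 libraries held the same counts.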

Additional observations from a re-analysis of the deposited data

Results flagged for a closer look

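In 13 of 154 groups of 6 libraries 1 library stood far from its group by Dixon's criterion, where chance gives about 1 in 20. Hspa12a was low in PBS 5 (94.5 CPM; the others 227 to 242) and in NMDA 4 (75.3 CPM; the others 199 to 217). PBS 3, the library with the fewest counts, was high for Dnaja1 (144 CPM; the others 129.9 to 133) and Hspa14 (51.1 CPM; 44.3 to 46.2) and low for Dnajb1 (74.9 CPM; 89.8 to 98.6) and Dnajb12 (56.9 CPM; 63.5 to 67.5). NMDA 3 was low for Hsp90aa1 (669 CPM; the others 755 to 800.2) and Dnajc11 (69.9 CPM; 77.1 to 79.7). Hsf1 was high in NMDA 1 (124 CPM; 102 to 108), Bag4 low in NMDA 4 (42.4 CPM; 46.4 to 48.3) and Dnajc15 high in NMDA 5 (20.1 CPM; 16.8 to 17.4). Dnajc12 was high in PBS 2 (47.3 CPM; 38.8 to 40.2) and Dnajc4 low in PBS 5 (21.8 CPM; 23.8 to 24.5).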

How the results depend on the processing

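The 15 higher members became 27 with library size only, 27 with limma on log2(FPKM + 1) and 27 on log2(FPKM + 0.1), and ran from 11 to 18 when 1 library was left out. The median log2 fold change of all tested genes was 0.01 with TMM, 0.00 with DESeq2 size factors and 0.06 with library size only. The 7 lower members became 11 with limma voom and quality weights, 12 without NMDA 1 and 14 without NMDA 1 and NMDA 3, and ran from 5 to 12 when 1 library was left out. DESeq2's Wald test called 16 higher and 10 lower. Over 73 members and 1811 values from 25 alternatives, 1641 stayed on the same side of the threshold, 66 lost the call and 104 gained one. No member that was called in either fit changed sign, but 64 values of 11 members that were not called did, each within 0.05 of 0. Call and sign were kept in every alternative run by 28 members, of which 13 were called: Bag3, Bag1, Hspa5, Hspe1, Hspd1, Hsp90ab1, Dnajb11, Dnajc3, Dnajc1, Dnajc27, Dnajc6, Hspb6 and Hsf4.

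No pairing by equal replicate numbers was seen: the correlations of their deviations were 0.14, 0.02, 0.07, -0.09, 0.15 and -0.19, and no library correlated best with its own number. So few correlations cannot exclude a shared litter or day, on which the labels say nothing. With the number as a replicate block 11 members were higher and 7 lower. Hspa2 (adjusted p = 0.0731), Hspb1 (0.0707), Dnajc25 (0.114), Hspa14 (0.0896) and Dnajb14 (0.0901) lost the call, and Dnajc5 (0.0417) gained one. The cause of each shift was not tested.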
